A study of Mus musculus with 6 samples.

Results

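Dapl1, Igfbp4 and Swap70 are genes that have been used to tell regulatory T cells (Treg) made in the thymus from Treg induced in peripheral tissue. All probe sets that the platform annotation assigned to 1 of these symbols were taken, whatever their values: 1 for Dapl1, 6 for Igfbp4 and 2 for Swap70, 9 of the 45101 probe sets on the array. They are 3 of the 18193 genes to which at least 1 probe set was assigned alone. The series has 6 Affymetrix arrays, each of CD4+ Foxp3+ cells that were sorted from the mesenteric lymph nodes. All mice were 4 to 6 weeks old. The 3 iTreg arrays hold induced Treg from TBmc mice with a Foxp3 GFP reporter on the Balb/c background, given ovalbumin by mouth at 1% for 1 week and gated as Nrp-. TBmc mice are known to have T cells of 1 ovalbumin-specific receptor and B cells of 1 receptor, without recombination of their own receptor genes. The 3 WT Treg arrays hold total Treg of wild-type Balb/c mice with the same reporter. The labels do not say how many mice stand behind an array or whether animals were pooled.

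Thymic Treg and Treg induced from mature CD4 T cells both depend on Foxp3, and transcripts that differ between them have been sought because Foxp3 itself does not tell them apart. In that literature Swap70 is listed with Nrp1 and Ikzf2 (Helios) as higher in thymic Treg, and Dapl1 and Igfbp4 as higher in induced Treg. Those listings are tied to work on this mouse model, so the direction of a difference on these arrays is not independent evidence for them. SWAP70 is a phosphoinositide-binding, actin-binding adaptor of Rac signalling, first purified from B cells. With its relative DEF6 it binds the transcription factor IRF4. IGFBP4 is a secreted protein that holds insulin-like growth factors away from their receptor until the protease PAPP-A cleaves it. DAPL1 is a small protein related to DAP1, a substrate of mTOR that restrains autophagy. Dapl1 and Igfbp4 transcripts are also found in naive T cells.

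The 250 bases before the annotated start of each gene are printed because the 3 genes are read as 1 set of markers, and their starts can be compared directly. The sequences are RefSeq's for GRCm38.p6, all 3 on the plus strand and matched by symbol; the array files name no build. Capitals mark matches, on either strand, to the letters of the TATA box (TATAAA), the forkhead core (TGTTTAC), the TCF and LEF words (CTTTGAA or CTTTGAT or CTTTGTA or CTTTGTT) and the GC box (GGGCGG).
Dapl1, chr2:59484403-59484652: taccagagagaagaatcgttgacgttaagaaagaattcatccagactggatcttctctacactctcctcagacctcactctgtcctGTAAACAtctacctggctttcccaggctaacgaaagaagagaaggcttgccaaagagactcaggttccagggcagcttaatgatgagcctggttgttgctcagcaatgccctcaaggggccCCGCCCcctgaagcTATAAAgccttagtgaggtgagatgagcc
Igfbp4, chr11:99040994-99041243: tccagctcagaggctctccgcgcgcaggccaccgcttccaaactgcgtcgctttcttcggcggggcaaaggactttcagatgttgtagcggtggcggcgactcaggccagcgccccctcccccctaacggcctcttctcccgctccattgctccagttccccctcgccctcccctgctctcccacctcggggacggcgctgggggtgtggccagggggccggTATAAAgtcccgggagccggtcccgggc
Swap70, chr7:110221453-110221702: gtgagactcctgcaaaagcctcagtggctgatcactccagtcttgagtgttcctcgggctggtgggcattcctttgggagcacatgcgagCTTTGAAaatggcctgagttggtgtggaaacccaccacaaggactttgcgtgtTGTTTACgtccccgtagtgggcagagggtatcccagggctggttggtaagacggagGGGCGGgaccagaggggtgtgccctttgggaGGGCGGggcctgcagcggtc
Dapl1 and Igfbp4 each hold TATAAA, beginning 29 and 28 bases before the start, and Swap70 does not hold it in this window. Of 32851 promoter windows of this length, 12.4% held TATAAA. The forkhead core lies in the windows of Dapl1 and Swap70, as GTAAACA and TGTTTAC, and in 3.17% of all windows. A TCF and LEF word lies only in that of Swap70 among the 3, and in 14.8% of all windows. The GC box occurs 1 time in Dapl1 and 2 times in Swap70, and in 32.7% of all windows. The Igfbp4 window has 69.2% G and C with 22 CpG dinucleotides, that of Swap70 59.6% with 9 and that of Dapl1 50.0% with 4, where the median window has 52.4% and 6. A match of letters shows no binding.

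Both probe sets of Swap70 were lower on average in iTreg. Probe set 1434225_at had MAS5 signals, the linear intensities deposited for each probe set, of 146, 105 and 82.3 in iTreg replicates 1, 2 and 3. In WT Treg replicates 1, 2 and 3 it had 211, 255 and 339. Every iTreg array lay below every WT array, so the groups did not overlap. The mean signal was 111 ± 32.4 (SD, n = 3) in iTreg and 268 ± 65.2 (SD, n = 3) in WT Treg. On the scale of log2(signal + 16), used for all differences here, iTreg minus WT Treg was -1.17 (standard error 0.38; 95% confidence interval from -1.99 to -0.35). The difference did not pass after Benjamini-Hochberg adjustment over all 27022 probe sets tested (limma adjusted p = 0.670). Of those probe sets, 2.50% had a larger difference in either direction.

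The other Swap70 probe set, 1423543_at, had signals of 93.2, 93.4 and 137 in iTreg, against 115, 234 and 309.8 in WT Treg. Here the groups overlapped, because WT replicate 1 lay below iTreg replicate 3. Means were 108 ± 25.3 (SD, n = 3) and 219.6 ± 98.03 (SD, n = 3), a difference of -0.85 with a standard error of 0.43 and an interval from -1.77 to 0.08 (limma adjusted p = 0.836). In WT replicate 1 the cell type label carries the Nrp- gate although the title says total Treg. On this array the 4 Nrp1 probe sets had 422, 708, 349 and 174, each above every iTreg array. Without that array the difference of 1423543_at was -1.22 and that of 1434225_at was -1.32; without WT replicate 3 they were -0.57 and -0.99. On both probe sets the lowest WT signal was that of replicate 1 and the highest that of replicate 3. Averaged over both probe sets, Swap70 differed by -1.01 (limma adjusted p = 0.436) and its groups did not overlap.

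Igfbp4 was higher on average in iTreg on 5 of its 6 probe sets. These 6 were designed on 3 sequence records, 2 probe sets a record, so they are not 6 separate measurements of the gene. The endings of their names say that 1 (_s_at) can match transcripts of other genes, that 2 (_x_at) hold probes that can match other sequences, and that 3 (_a_at) match several transcripts of the gene. On 4 of them every iTreg array lay above every WT array; such separation was seen in 11.4% of all tested probe sets in either direction, in 4.54% with iTreg higher and in 6.89% with iTreg lower. The separation depended on the scaling: with each array scaled to its median signal, groups overlapped on all 6 Igfbp4 probe sets, and with quantile normalization the same count of 4 was reached. Of all tested probe sets, 47.9% had a difference above 0.

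The probe set with the highest signals, 1437405_a_at, had 2108, 3351 and 2662 in iTreg, against 1389, 1758 and 1998 in WT Treg. The lowest iTreg array was above the highest WT array by a small margin. Means were 2707 ± 623 (SD, n = 3) and 1715 ± 307 (SD, n = 3), a difference of 0.64 with a standard error of 0.28 and an interval from 0.03 to 1.26 (limma adjusted p = 0.791). Its partner on the same record, 1437406_x_at, had 464, 1071 and 658 in iTreg, against 372, 403 and 381 in WT Treg. The WT arrays lay close together and the iTreg arrays spread upward from just above them. The difference was 0.82 (standard error 0.34), and the interval ran from 0.07 to 1.56 (limma adjusted p = 0.775), and it was 0.50 without iTreg replicate 2.

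The largest Igfbp4 difference was on 1423756_s_at, with signals of 798, 1626 and 1588 in iTreg, against 539.8, 572 and 641 in WT Treg. Means were 1337 ± 467 (SD, n = 3) and 584 ± 51.4 (SD, n = 3), and the groups did not overlap. The difference was 1.11 with a standard error of 0.33 and an interval from 0.40 to 1.82 (limma adjusted p = 0.592), and 3.15% of tested probe sets had a larger one. Its partner 1423757_x_at had 567, 701 and 681 in iTreg, against 312, 532 and 554 in WT Treg. WT replicates 2 and 3 came near the lowest iTreg array without reaching it. The difference was 0.50 with an interval from -0.19 to 1.20 (limma adjusted p = 0.870), and it was 0.25 without WT replicate 1.

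The remaining pair of probe sets did not separate the groups. Probe set 1421992_a_at had 279.9, 808 and 409 in iTreg, against 292, 289.7 and 335 in WT Treg, so that iTreg replicate 1 was the lowest of all 6 arrays. Its difference of 0.55 (interval from -0.29 to 1.39, limma adjusted p = 0.881) fell to 0.14 without iTreg replicate 2 and was 0.88 without iTreg replicate 1. Probe set 1421991_a_at went the other way, with 40.05, 68.6 and 38.6 in iTreg, against 70.5, 40.2 and 107 in WT Treg. Its difference was -0.40 with an interval from -1.36 to 0.56 (limma adjusted p = 0.925). It was -0.13 without WT replicate 3, -0.69 without WT replicate 2, -0.61 without iTreg replicate 2 and -0.02 without both replicate 3 arrays. These were the lowest Igfbp4 signals, yet above 28.5, the highest signal of 27 bacterial control probe sets that have no target in these samples. The mean over the 6 probe sets differed by 0.54 (limma adjusted p = 0.704), with overlapping groups.

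The arrays kept a similar order on the Igfbp4 probe sets. iTreg replicate 2 was the highest of all 6 arrays on 5 probe sets, and iTreg replicate 1 was the lowest iTreg array on 5. WT replicate 1 was the lowest of all 6 arrays on 4. That array, labelled Nrp- in part, therefore did not sit with the iTreg arrays on Igfbp4, and the lowest value of the gene was most often its value. Over the 6 arrays, log2 signals of the 15 pairs of Igfbp4 probe sets had a median Pearson correlation of 0.76, from -0.24 to 0.94. These correlations are descriptions over the same arrays and scaling. For Igfbp4 against Swap70 the 12 pairs ranged from -0.89 to 0.53 with a median of -0.49.

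Dapl1 did not separate the groups. Its single probe set, 1453568_at, had signals of 158, 322 and 98.6 in iTreg, against 173, 54.3 and 274 in WT Treg. The highest array was iTreg replicate 2 and the lowest WT replicate 2, and between them lay 2 WT arrays and then 2 iTreg arrays. Means were 193 ± 115 (SD, n = 3) and 167 ± 110.0 (SD, n = 3), a difference of 0.27 with a standard error of 0.55. The interval ran from -0.93 to 1.47, so these arrays do not show that the groups were alike (limma adjusted p = 0.966). The sign was set by single arrays: without iTreg replicate 2 the difference was -0.15 and without WT replicate 2 it was -0.31. Of all tested probe sets, 54.5% had a larger difference.

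**Figure D1:**
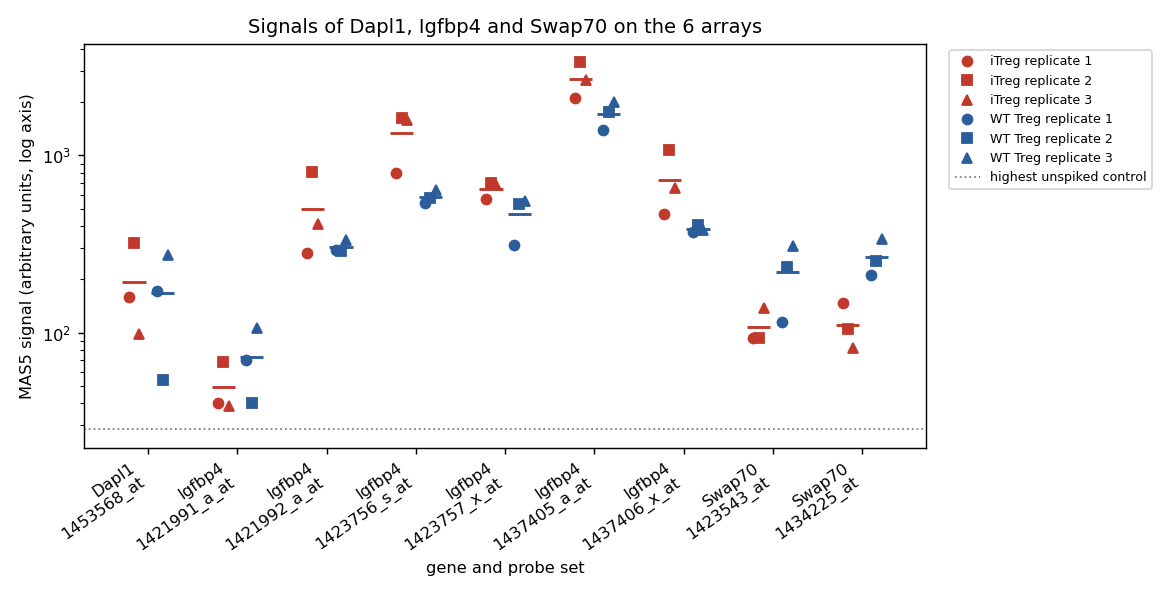
MAS5 signals (log axis) of the 9 probe sets of Dapl1, Igfbp4 and Swap70 on the 3 iTreg and 3 WT Treg arrays, with a mark for each array and a bar for each group mean. The dotted line is the highest unspiked control at 28.5. In the deposited scaling iTreg lies above WT Treg without overlap on 4 Igfbp4 probe sets and below it on Swap70 probe set 1434225_at.

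All 9 probe sets passed the filter on dim values, and limma called 0 of them at an adjusted p of 0.05. At an unadjusted p of 0.05, limma gave 4 of 9. Over the whole array, limma called 7 probe sets, 0.0259% of those tested, and 6.21% had an unadjusted p under 0.05, 2.44% with iTreg higher and 3.77% with iTreg lower. With median scaling these shares were 3.28% and 2.57%, so the direction that prevails over the array turns with the scaling. Of the 4 members at that level, 3 were Igfbp4 probe sets, higher in iTreg, and 1 was Swap70 1434225_at, lower. Groups did not overlap on 5 of the 9, beside 11.4% of all tested probe sets. With median scaling this was so on 1 of the 9, Swap70 1434225_at, beside 10.2% of all. The count of 5 rests on few independent measurements, since 4 of them are pairs of Igfbp4 probe sets on shared records. The sign was as listed for these genes on 8 of 9 probe sets, 1421991_a_at of Igfbp4 being the other. For Dapl1, among the 8, it turned when either replicate 2 array was left out. This tally is not independent evidence for the listings, which are tied to work on this mouse model.

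**Figure D2:**
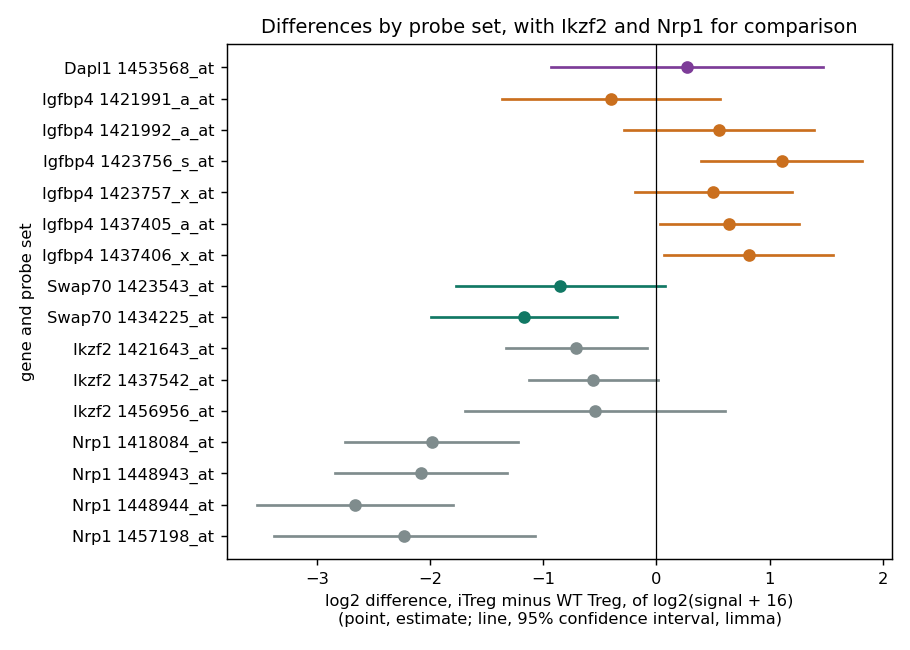
Log2 differences, iTreg minus WT Treg, for every probe set of Dapl1, Igfbp4 and Swap70 and, in grey, of Ikzf2 and Nrp1; lines are 95% confidence intervals from limma. Intervals that do not reach 0 are seen for 3 Igfbp4 probe sets and for Swap70 1434225_at, and the differences of Nrp1 are further from 0 than those of all 9 probe sets in colour.

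Nrp1, a co-receptor for semaphorins and VEGF, and Ikzf2, which encodes the transcription factor Helios, were measured on the same arrays. Nrp1 was used for the gate, so its difference checks the sort only. Its 4 probe sets differed by -2.66 to -1.99 without overlap, but none passed (limma adjusted p from 0.064 to 0.367). Such separation with iTreg lower was seen in 6.89% of all tested probe sets. Nrp1 probe set 1457198_at did not exceed 28.5 on 2 iTreg arrays. The 3 probe sets of Ikzf2 differed by -0.71, -0.56 and -0.54 (limma adjusted p = 0.775, 0.808 and 0.917). On the first pair the groups did not overlap. The Swap70 differences of -1.17 and -0.85 lay between those of the 2 genes, and whether Swap70 differed from either was not tested.

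**Figure D3:**
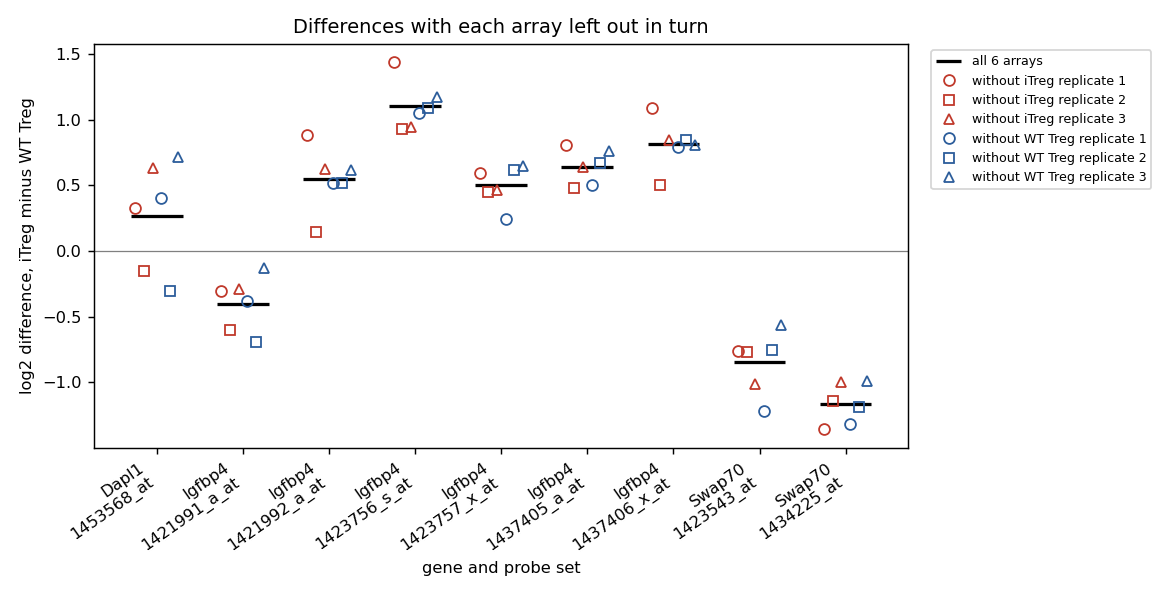
Log2 differences of the 9 probe sets with all 6 arrays (black bars) and with each array left out in turn (open marks, red for iTreg and blue for WT Treg arrays). The marks cross 0 for Dapl1, at -0.15 and -0.31, and stay on one side of 0 for the 8 probe sets of Igfbp4 and Swap70.

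Partners of SWAP70 were described from a list of 24 genes that holds Def6, Irf4, the Rac genes, exchange factors and actin regulators, of which 23 were tested with 1 probe set a gene. limma called 0 of them in either direction, gave 2 as lower and 0 as higher before adjustment (p under 0.05), and found groups without overlap in 3 lower and 1 higher. Their median difference was -0.06, beside -0.03 over all 10916 genes tested, of which 0.0275% were called. Of all genes, 7.59% had an unadjusted p under 0.05 (3% higher and 4.58% lower in iTreg) and 12.9% had groups without overlap (5.1% higher and 7.78% lower). With median scaling the unadjusted shares were 3.31% higher and 2.81% lower, and those without overlap 5.89% higher and 4.28% lower. Of the genes named below as without overlap, Igf1r, Def6, Tiam1, Rheb and Satb1 overlapped with median scaling, and Irf4, Dapk1 and Ccr9 did not. Irf4, the transcription factor that SWAP70 and DEF6 bind, had signals of 135, 156 and 145 in iTreg, against 275, 365 and 849 in WT Treg. All iTreg arrays lay below all WT arrays (difference -1.51, standard error 0.41, limma adjusted p = 0.376), and its other probe set differed by -0.73 with overlap. Def6 had 151, 163 and 114 against 179.7, 209 and 231, also without overlap (difference -0.50, limma adjusted p = 0.788). Tiam1, an exchange factor for Rac, differed by -1.19 without overlap (limma adjusted p = 0.431), and Vav2, another exchange factor, by -0.64 with overlap and 0.06 on its other tested probe set.

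Around Igfbp4, 9 of the 23 measured genes of the insulin-like growth factor (IGF) axis passed the filter. limma called 0 of them. Before adjustment it gave 1 as lower and 0 as higher, beside 4.58% lower and 3% higher over all genes. The median difference was -0.15. The IGF receptor gene Igf1r had signals of 355, 322 and 471 in iTreg, against 613, 1036 and 1104 in WT Treg, without overlap. Its difference was -1.20 (standard error 0.32, limma adjusted p = 0.339). All 5 Igf1r probe sets were lower on average in iTreg, by -1.77 to -0.40, and 4 of them had no overlap. Igf2r, the receptor that clears IGF2, differed by -0.15 and by -0.69 on its other probe set, with overlap on both. The insulin receptor gene Insr had 84.7, 313 and 255 in iTreg, against 107, 98.7 and 92.6 in WT Treg, so iTreg replicate 1 lay below every WT array (difference 0.85, limma adjusted p = 0.717). On its other probe sets the difference was 0.55 and -0.05.

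The other binding proteins were at the level of the controls. Igfbp1, Igfbp2, Igfbp3, Igfbp5 and Igfbp6 did not exceed 28.5 on any array, and Igfbp7 did so on iTreg replicate 1 alone, with 55.6. Of these, Igfbp6 and Igfbp7 passed the filter and differed by 0.12 and 0.27. Pappa, the gene of the protease that cleaves IGFBP4, and Pappa2, the gene of a related protease, did not pass it. Stc2, an inhibitor of these proteases, had 12.1, 84.3 and 20.8 in iTreg, against 194, 63.2 and 44.5 in WT Treg. It differed by -1.09 with overlapping groups (limma adjusted p = 0.711), and 2 iTreg arrays did not exceed 28.5. Its other tested probe set differed by -0.68, with all 3 iTreg arrays and 2 WT arrays not above 28.5. The probe set below the filter differed by 0.12.

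Around Dapl1, a list of 25 genes held its relative Dap, the DAP kinases, mTOR complex subunits and autophagy genes, and 22 were tested. limma called 0, and gave 1 as lower and 0 as higher before adjustment, beside 4.58% lower and 3% higher over all genes. The median difference was -0.09. Dap had signals of 364, 713 and 902 in iTreg, against 631, 535 and 491 in WT Treg. The WT arrays lay within the range of the iTreg arrays, and the 2 Dap probe sets differed by 0.16 and 0.09. Rptor, the mTORC1 subunit that recruits substrates, had 26.0, 81.1 and 22.0 in iTreg, against 90.9, 138 and 69.4 in WT Treg. It differed by -1.06 with overlap (limma adjusted p = 0.633) and was lower on average on all 3 of its probe sets. On each of these, at least 1 iTreg array did not exceed 28.5, the highest control signal. Rheb, the GTPase that activates mTORC1, had 456, 397 and 174 against 533, 521 and 619, without overlap (difference -0.78, limma adjusted p = 0.665). Dapk1, a kinase of the death-associated group, had low signals of 38.3, 30.9 and 40.7 in iTreg, against 74.7, 68.3 and 42.5 in WT Treg. It differed by -0.54 without overlap, by a small margin (limma adjusted p = 0.778). Its other probe set, below the filter and not tested, differed by -0.39 with overlap.

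Because Dapl1 and Igfbp4 are also transcripts of naive T cells, 14 other genes of naive or central T cells were set beside them. limma called 0, gave 3 as higher and 2 as lower before adjustment, and found 2 higher and 0 lower without overlap. Over all genes the unadjusted shares were 3% higher and 4.58% lower, and those without overlap 5.1% and 7.78%. With median scaling the list had 2 higher and 1 lower before adjustment, and 1 higher and 0 lower without overlap. Their median difference was 0.23. Ccr9, a gut-homing chemokine receptor, had signals of 1341, 686 and 1880 in iTreg, against 401, 375 and 500.2 in WT Treg (difference 1.47, limma adjusted p = 0.262). It did not overlap on 3 of its 5 probe sets, beside 4.54% of all tested probe sets with iTreg higher. The other 2 Ccr9 probe sets differed by 0.16 and 0.15. Satb1, a chromatin organiser, differed by 1.01 without overlap and by 0.25 to 1.00 on its other 4 probe sets. Il7r, the receptor for a survival cytokine of naive T cells, went the other way at -1.20 with overlap (limma adjusted p = 0.519). Of the 14, 9 had a difference above 0 and 5 below.

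**Figure D4:**
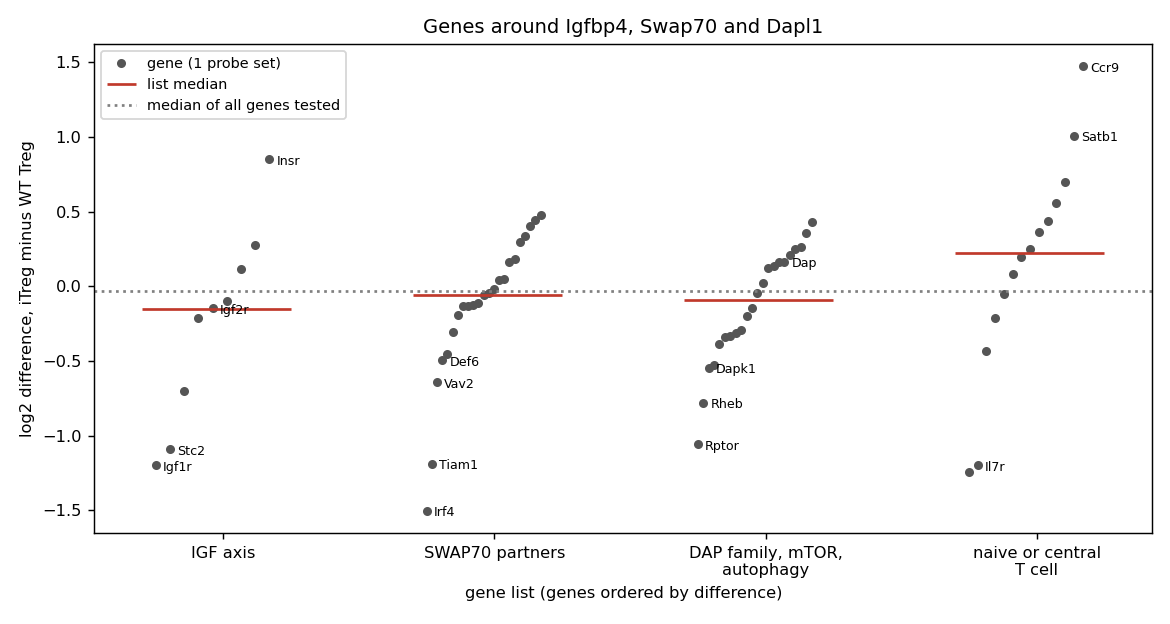
Log2 differences, iTreg minus WT Treg, of the tested genes of 4 lists around Igfbp4, Swap70 and Dapl1 (dots, 1 probe set a gene, ordered by difference within a list), with list medians in red and the median of all genes dotted. Irf4 at -1.51, Igf1r at -1.20 and Ccr9 at 1.47 lie at the ends of their lists, and list medians range from -0.15 to 0.23.

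The genes most like each member over the 6 arrays were found by Pearson correlation of log2 values against 10386 named genes. For Dapl1 these were Gen1, a Holliday junction resolvase (r = 0.99), Thoc3, of the mRNA export complex (r = 0.98), and Scaf11 (r = 0.98). Igfbp4, by its brightest probe set, was most like Serpinb9c (r = 0.99), the transcription factor gene Irf8 (r = 0.99) and the phospholipid transporter gene Atp8b4 (r = 0.97). Swap70 was most like Fundc1, a mitophagy receptor (r = 0.99), Trhr2 (r = 0.99) and Timp2, a metalloprotease inhibitor (r = 0.99). A correlation of at least 0.95 was reached by 12, 10 and 75 genes for Dapl1, Igfbp4 and Swap70. With 6 arrays and this many genes such values are a description of likeness and nothing more.

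In sorted cells measured in bulk, fewer cells that hold a transcript and less of it per cell cannot be told apart. Swap70 is also expressed in B cells and myeloid cells, and Igfbp4 in stromal cells, so markers of these were read on the same arrays. The summed signal of 14 measured B cell genes ranged from 1016 to 1632 in iTreg and from 602 to 1073 in WT Treg, of which Ighm gave 672 to 1194 and 275 to 805. The sum was higher on average in iTreg, and of the 9 tested B cell genes 5 had a difference above 0 and 4 below. Ms4a1, Pax5, Cr2 and Blk, 4 of the 14, did not exceed 28.5 on any array. Cd74, the invariant chain of B cells and other antigen-presenting cells, had 124, 140.0 and 144 in iTreg, against 56.0, 19.8 and 16.5 in WT Treg, without overlap (difference 1.79, limma adjusted p = 0.215). It had the largest difference of its list. Ighm differed by 0.97 with overlap (limma adjusted p = 0.622). H2-Eb1, below the filter and not tested, had 32.7, 30.7 and 8.13 in iTreg, against 5.775, 3.17 and 4.95 in WT Treg. Its groups did not overlap (difference 0.88). H2-Ab1 and H2-Aa differed by -0.50 and 0.09, and Cd79b and Cd79a by -0.38 and 0.10, all with overlap. Of 14 myeloid genes 6 did not exceed 28.5 on any array, Itgax, Cd14 and Adgre1 among them. The sum of the 14 was 3403 to 4068 in iTreg and 3648 to 5364 in WT Treg, mainly Ctss. Lyz2, lysozyme of myeloid cells, had 44.6, 44.2 and 23.1 in iTreg, against 21.9, 9.01 and 8.79 in WT Treg, also without overlap (difference 0.87, limma adjusted p = 0.622). Of the 6 tested myeloid genes 4 had a difference above 0 and 2 below, Cst3 at -0.71 and Ctss at -0.16. Of 13 stromal and endothelial genes 10 did not exceed 28.5 on any array, Dcn, Col1a2, Col3a1 and Pdgfra among them. The sum of the 13 was 451 to 911 in iTreg and 464 to 495 in WT Treg, mainly Pecam1, which T cells also express. The sum of 5 genes of CD8 T and NK cells was 167 to 240 in iTreg and 149 to 159 in WT Treg, without overlap, and 2 of the 5 did not exceed 28.5 on any array. Cd8b1 had 69.6, 132 and 70.1 in iTreg, against 63.3, 33.7 and 34.0 in WT Treg (difference 0.82, limma adjusted p = 0.698). Both Cd8b1 and Cd8a, at 93.0, were highest on iTreg replicate 2, the array that was also highest for Dapl1 and on 5 Igfbp4 probe sets. Nkg7, of the same list, went the other way. It was lowest on that array, at 8.62, and differed by -0.55 with overlapping groups. The part of these cells in the differences was not tested.

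T cell identity was read from Cd4 and Cd3e, at 1497 to 3739 and 2865 to 6949 over the 6 arrays. Treg identity was read from Il2ra, at 1169 to 2256 in iTreg and 3537 to 5860 in WT Treg. Il2ra differed by -1.35 and Tnfrsf18 by -0.99, both without overlap (limma adjusted p = 0.228 and 0.405). With overlap, Ctla4 and Ikzf4 differed by -0.33 and -0.40, Cd4 and Cd3e by 0.48 and 0.30, and Cd3d and Cd3g by -0.33 and -0.49. Foxp3, the gene of the reporter, had 1 probe set with 9.16 to 54.6, above 28.5 on 3 of 6 arrays, so it marks the cells poorly here. The log2 ratio of 3′ to 5′ Gapdh signals, a measure of RNA quality, was 3.06, 2.485 and 3.38 in iTreg replicates 1, 2 and 3. In WT Treg replicates 1, 2 and 3 it was 2.28, 2.525 and 2.34, so iTreg replicates 1 and 3 lay above every WT array. The part of RNA quality in the differences was not tested. In iTreg replicate 1 the strain label leaves out TBmc, and this array correlated more with WT replicate 1 (r = 0.94 over tested probe sets) than with iTreg replicates 2 and 3 (0.93 and 0.89). The same held for iTreg replicate 2, with 0.94 against WT replicate 1, so this does not single out the array with the label doubt. Without these 2 arrays, whose labels go against their titles, the differences were -1.51 and -1.14 for Swap70, 0.46 for Dapl1, and -0.29 to 1.38 for Igfbp4. The mouse line with its receptors, the feeding and the gate all change between iTreg and WT Treg, and their parts in any difference cannot be told apart.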

How the data were processed

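Labels name 3 iTreg and 3 WT Treg arrays; groups and replicate numbers came from the titles. The authors deposited MAS5 intensity values, 1 per probe set on a linear scale, per the submitters' processing notes; the MAS5 version and genome build are not given in the sources used here. Per the labels, Trizol was used for extraction and biotin for labelling. The 2% trimmed mean was 150.0 on all 6 arrays, which shows scaling before deposit. Scaling of this kind makes values relative to each array's own total. Detection calls were not used here.

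Of 45101 probe sets, 64 were controls, 34945 had 1 symbol, 932 several and 9160 none; the last 2 kinds were tested but not named. No probe set with several symbols listed a member. Signals were transformed as log2(signal + 16), which understates changes of low signals. Probe sets at or above the 40th percentile of the mean over all arrays, 4.91 on that scale, were tested with limma 3.58.1 in R 4.3.3 (lmFit, eBayes with an intensity trend, two-sided, Benjamini-Hochberg at 0.05). For gene lists the same fit used the brightest probe set per gene, 10916 genes at or above 4.99. The fit was tested on simulated data. The members, gene lists, named genes and alternatives were chosen with earlier results of these data known. Named were all probe sets of the members, their partners, the 3 list genes with the smallest p, and the 3 most like genes. List genes with no single-symbol probe set, such as Tcf7, were not analysed here.

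Alternatives covered the pseudocount (1 and 64), the scaling (quantile, median), the filter (none, 60th percentile), other variance models, Welch's test, a block by replicate number, arrays left out singly and in pairs, probe sets specific by name and the mean of probe sets. Both filter alternatives also ran with a pseudocount below 1. The labels do not say whether replicates are separate animals; p-values then measure the spread between arrays, which may be technical. The number of arrays limits the precision.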

Additional observations from a re-analysis of the deposited data

How the results depend on the processing

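Over the alternatives, each Igfbp4 and Swap70 probe set kept its sign and none of the 9 passed. In the fits by probe set, adjusted p ranged from 0.447 to 0.9996 for them and Dapl1. In the fits by gene no member passed, and the lowest limma adjusted p was 0.371, for Swap70 without iTreg replicate 2. Dapl1 turned to -0.15 without iTreg replicate 2 and to -0.31 without WT replicate 2, on its probe set and in the fit by gene, ranged from -0.31 to 0.71 without single arrays, and was 1.07 without both replicate 3 arrays. The number of probe sets called, 7, was 2 with a pseudocount of 1, 3 with specific probe sets by name and 12 with array weights. It was 2 with no filter and 4 with the 60th percentile filter. Both filter alternatives also ran with a pseudocount below 1, so their counts do not show the effect of the filter alone. Welch's test called 0 (1019 at an unadjusted p under 0.05); of the 9 member probe sets it gave 1 at that unadjusted level, where limma gave 4. Of the tested list genes it called 0 after adjustment, and unadjusted gave 1 of the IGF axis, 1 of the SWAP70 partners, 0 of the DAP family and 0 of the naive T cell genes. Leaving out single arrays gave 0 to 9; leaving out both arrays with label doubts gave 0 (1253 unadjusted) and both replicate 3 arrays 0 (1403 unadjusted). In the fit by gene, limma's 3 calls (Nt5e, Flicr and Trav12n-1, named after their values were seen) became 8 with median scaling and 14 with array weights. They became 0 with a pseudocount of 1 (794 unadjusted), with no filter and the pseudocount below 1 (1138), and with Welch's test (472). They also became 0 without both arrays with label doubts (560) and without both replicate 3 arrays (636), and 0 to 1 without single arrays. Same-numbered arrays deviated together with correlations of 0.19, 0.037 and 0.12, each array correlating best with its own number; this is a hint from the data and not a pairing in the labels. With the replicate number as a block, 3 probe sets were called and no member. Median list differences changed sign for the IGF axis (-0.47 to 0.02), the SWAP70 partners (-0.13 to 0.10) and the DAP family (-0.25 to 0.08), and stayed from 0.01 to 0.40 for naive T cell genes. The number of arrays, 3 a group, limits what can be seen.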
